A study of Homo sapiens with 6 samples.

Results

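The genes described here are 10 components of the cAMP-responsive transcription machinery: the CREB family factors CREB1, CREM and ATF1, the CRTC coactivators CRTC1, CRTC2 and CRTC3, the histone acetyltransferases CREBBP and EP300, and the salt-inducible kinases SIK1 and SIK2. They were picked by gene symbol, with earlier results of these data known, and all 10 were among the 35793 symbols of the deposited table. RNA was measured in cardiomyocytes grown from induced pluripotent stem cells of the human line WTC11, with 3 wild-type libraries and 3 libraries from STK25KO (WTC11 background), a line made with CRISPR/Cas9 that is homozygous for a knockout of STK25. All 6 cultures were untreated, grew in medium with B27 supplement and were taken on day 15 of differentiation. The knockout was represented by 1 line, so that the edit and other differences between the lines cannot be told apart. The replicates are called biological, without a statement of what separated them, so p-values measure only the spread between these samples.

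When cAMP rises in a cell, protein kinase A phosphorylates CREB factors bound at cAMP response elements in DNA. The phosphorylated factor recruits the acetyltransferases CBP (encoded by CREBBP) and its paralog from EP300, which open chromatin and contact the transcription machinery. CRTC coactivators bind the same factors and are held in the cytoplasm when salt-inducible kinases phosphorylate them; protein kinase A inhibits those kinases and calcineurin removes the phosphate, so that CRTC proteins enter the nucleus. In heart muscle the pathway lies downstream of beta-adrenergic signalling. STK25 encodes a kinase of the STRIPAK complex that has been linked to protein kinase A signalling. Most of this regulation acts on proteins, and the table holds RNA only.

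The libraries held from 22443904 (wild-type replicate 1) to 53224112 (wild-type replicate 3) reads assigned to genes, and the unit used throughout is the normalized count, a library's reads divided by 1 factor for that library. STK25 itself had 8874, 6774 and 8710 normalized counts in wild-type replicates 1, 2 and 3 and 3906, 3434 and 3820 in the knockout replicates. Knockout libraries all lay below the wild type, with a log2 fold change of -1.12 (SE 0.19, limma adjusted p = 0.00903), and -1.05 without wild-type replicate 1 (limma adjusted p = 0.0611). With 3 against 3 libraries, an exact permutation test (two-sided) gave p = 0.1, the smallest it can give. All 10 cardiomyocyte markers listed for the check, such as TNNT2 and MYH6, were detected, and their summed level was 1297640 to 1613990 in wild-type and 1830510 to 3326520 in knockout libraries, with 2 of them past the test as lower in the knockout. The 5 smooth muscle markers all passed the test as higher in the knockout, with sums from 79383 to 89832 against 491950 to 539638. Pluripotency markers summed to 960 to 1043 against 3098 to 4469, with 1 of 5 tested past the test as higher and 0 as lower. Epithelial markers summed to 122741 to 128799 against 279152 to 310246, with 2 of 5 past it as higher and 1 as lower. Epicardial markers summed to 236 to 326 against 568 to 852, with 1 of 5 past it as higher and 0 as lower. Endothelial markers summed to 1254 to 1382 against 1363 to 2139, with 0 past the test. Of those 6, CDH5 and TIE1 were at no more than 3 reads in every library. The part of these differences in the members' values was not tested. In bulk RNA, fewer cells of a type and less RNA per cell cannot be told apart.

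Of the 10 genes, 0 differed between the genotypes at a limma adjusted p under 0.05, where 12.8% of the 15536 tested genes did (5.97% as higher and 6.79% as lower). At an unadjusted limma p under 0.05 there were 2, CRTC3 (lower) and SIK1 (higher), against 27.5% of all tested genes. With SIK1 summed with SIK1B, a nearly identical second row described below, there was 1, and the sum had an unadjusted limma p of 0.155. That summing was chosen after the values were seen. The quasi-likelihood test of edgeR, run on reads recovered from the table, called 0 of the 10. It had 2 at an unadjusted p under 0.05, CRTC3 and SIK2 (edgeR adjusted p = 0.0934 and 0.146). SIK1 was not among them (edgeR adjusted p = 0.449). DESeq2 called 1, CRTC3. In the knockout 7 of the 10 had a lower fitted mean and 3 a higher one. Their median log2 fold change was -0.21, beside 0.0052 over all tested genes. The 3 libraries of one genotype lay wholly outside those of the other for 2 of the 10, CRTC3 on the lower side and SIK2 on the higher side. Over all tested genes such separation held for 33.4%, with 16.2% higher and 17.2% lower, so the members' share was not above the background.

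**Figure D1:**
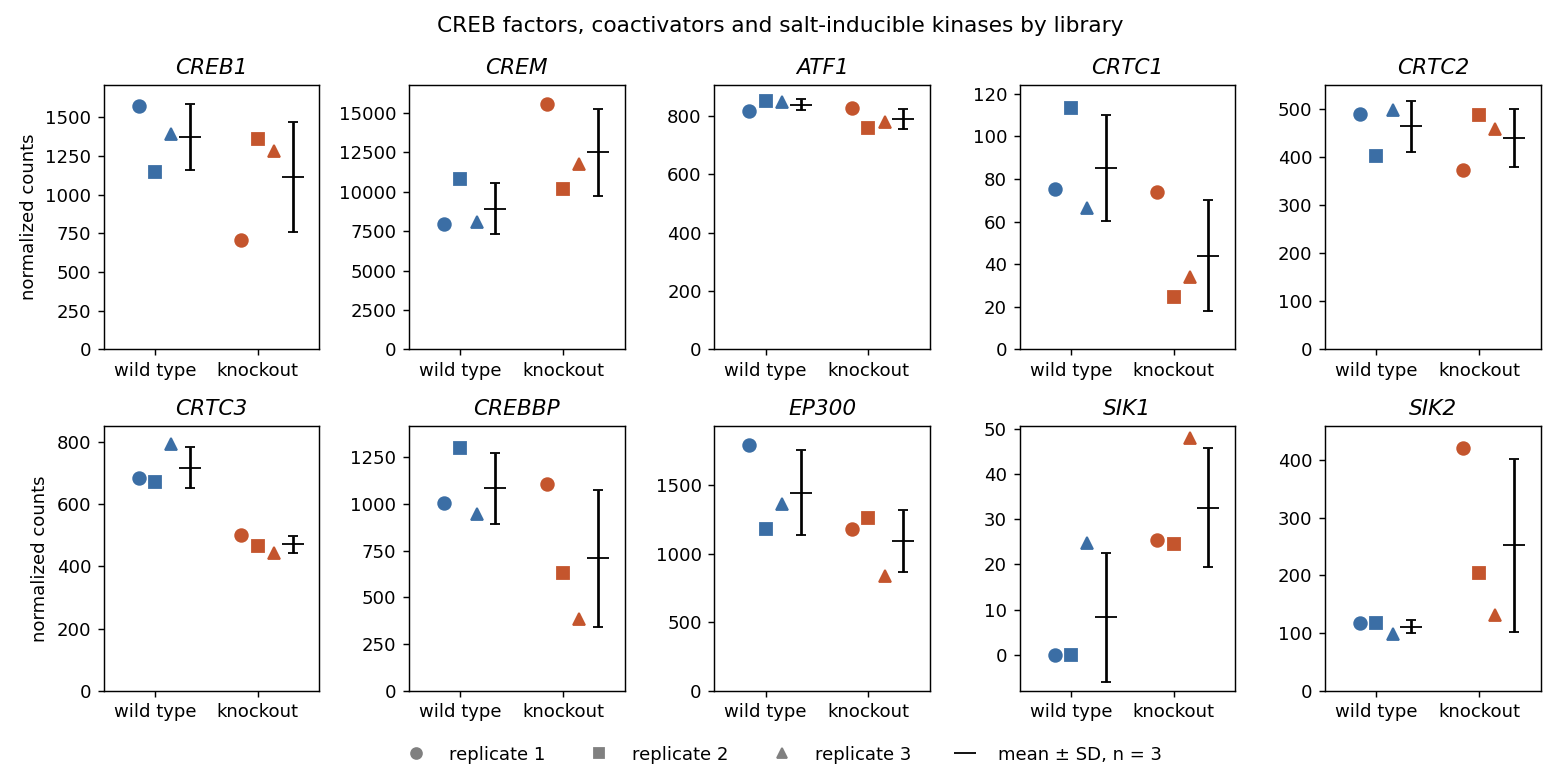
Normalized counts of the 10 genes in each library, on a linear axis per gene, with 3 wild-type libraries (blue) and 3 knockout libraries (orange), a symbol per replicate number, and the mean ± SD in black. CRTC3 and SIK2 are the panels in which the genotypes do not overlap, and CREB1, CREM, CRTC1, CREBBP and SIK2 show knockout replicate 1 away from the other knockout libraries.

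CREB1 (chromosome 2, 207529737 to 207603431, plus strand; gene positions are those of GENCODE 29 on GRCh38) encodes the prototype factor, a basic leucine zipper protein with a kinase-inducible domain. Its wild-type libraries stood at 1572, 1146 and 1392 normalized counts and its knockout libraries 709, 1359 and 1282. The genotypes overlapped, and knockout replicate 1 was well below the other libraries. The fitted log2 fold change was -0.34 with a 95% interval from -1.02 to 0.34 (limma adjusted p = 0.512). Without knockout replicate 1 it was -0.042 (limma adjusted p = 0.921).

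ATF1 (chromosome 12, 50763710 to 50821122, plus strand), a close relative that forms dimers with CREB1, varied least among the members. It had 816, 850 and 849 normalized counts in the wild type and 829, 760 and 780 in the knockout. The coefficient of variation between replicates was 2.34% and 4.47%, and the knockout mean was 94.2% of the wild-type mean. The log2 fold change of ATF1 was -0.087 with a 95% interval from -0.52 to 0.35 (limma adjusted p = 0.821), which leaves room for changes up to those bounds.

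CREM (chromosome 10, 35126791 to 35212958, plus strand) encodes both activators and repressors, through alternative exons and an internal promoter that drives the inducible repressor ICER. Its wild-type libraries stood at 7927, 10776 and 8058 normalized counts and its knockout libraries 15562, 10174 and 11748. Knockout replicate 1 was the highest of the 6, and wild-type replicate 2 lay above knockout replicate 2. The knockout mean was 140% of the wild-type mean, with a log2 fold change of 0.48 and a 95% interval from -0.062 to 1.02 (limma adjusted p = 0.234). Scaling to equal totals, which lowered the median of all genes to -0.28, gave 0.20 (limma adjusted p = 0.519). With wild-type replicate 2 and knockout replicate 1 both left out, a choice made after the values were seen, CREM was 0.45 with a limma adjusted p of 0.0201; the same choice raised the calls over all genes to 4706. Gene totals do not divide CREM into activator and ICER transcripts.

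The internal CREM start is shown because it carries the palindromic cAMP response element TGACGTCA, which reads the same on both strands. In the RefSeq promoter windows (GRCh38.p14, 250 bases before to 50 after each start), the element lies from 50 bases before the start at position 35195902 of chromosome 10. For another RefSeq start of CREM, at position 35195850, the same element lies from 2 bases after the start. The 30 bases around it, on the plus strand at chr10:35195841-35195870, read as follows, with the element in capitals.
CREM internal promoter: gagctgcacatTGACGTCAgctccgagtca
This element is in 1.85% of all 35116 windows, on either strand, and among 9 members with 18 windows it was in 2 windows, both of CREM and overlapping each other. The short element, TGACG or its complement CGTCA, both of which lie inside the full one, was in 24.6% of all windows and 7 of the 18 member windows. By gene, it was in a window of 28.4% of all genes and of 5 of the 9 members: CREM, CRTC3, CREBBP, SIK1 and SIK2. The windows of CREB1, ATF1, CRTC1 and EP300 hold neither. These are matches of letters and were not tested for binding.

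Levels were compared between genes only per kilobase of transcript, with the median length of each gene's protein-coding transcripts in GENCODE 29. On that scale CREM was first in both genotypes, at 9375 ± 1691 normalized counts per kilobase in wild-type libraries and 13132 ± 2912 in knockout libraries (each ± SD, n = 3). In the wild type EP300 (2587 ± 558) and CREB1 (1899 ± 296) followed, closer to each other than the sum of their SDs, then CREBBP (1281 ± 225) and ATF1 (1125 ± 26.3), also closer than that sum. CRTC3 (362 ± 33.4), CRTC2 (217 ± 24.8), CRTC1 (34.8 ± 10.2), SIK2 (11.5 ± 1.13) and SIK1 (3.11 ± 5.39) came next, each apart from the one before by more than the sum of the SDs (n = 3 each). In the knockout EP300, CREB1, ATF1 and CREBBP each lay within that sum of the next, as did CRTC3 and CRTC2, and SIK2, CRTC1 and SIK1. The place of SIK1 is that of its own row alone. SIK1B, a nearly identical second row described below, stood at 63.3 ± 24.9 in the wild type and 91.9 ± 35.5 in the knockout. In each genotype the SIK1B mean was above those of CRTC1 and SIK2. The annotation holds short partial transcripts, such as those that give EP300 a median of 559 bases against 9587 for its longest. Per kilobase of the longest transcript CREM was again first, at 3868 ± 698 in the wild type, and ATF1 came next at 384 ± 8.97, while EP300 was at 151 ± 32.6 (SD, n = 3 each), so the order below CREM depends on the length used.

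The 3 CRTC coactivators gave different pictures. CRTC3 (chromosome 15, 90529925 to 90645345, plus strand) had 686, 673 and 793 normalized counts in the wild type and 501, 467 and 444 in the knockout. Every knockout library was below every wild-type library, and the knockout mean was 65.6% of the wild-type mean. Its log2 fold change was -0.60 (SE 0.21) with a 95% interval from -1.08 to -0.13 (limma adjusted p = 0.101, unadjusted p = 0.0198). It stayed between -0.65 and -0.53 when any 1 library was left out, never past the threshold, with adjusted p-values from 0.0949 to 0.296. DESeq2 (adjusted p = 0.0224), equal totals (limma adjusted p = 0.0469) and leaving out wild-type replicate 2 and knockout replicate 1 together (limma adjusted p = 0.0279) put CRTC3 past it.

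CRTC2 (chromosome 1, 153947669 to 153958625, minus strand), the form best known from liver gluconeogenesis, had 491, 404 and 499 normalized counts in the wild type and 374, 489 and 459 in the knockout. The genotypes overlapped, with knockout replicate 1 the lowest library and wild-type replicate 3 the highest, and the log2 fold change was -0.079 with a 95% interval from -0.62 to 0.46 (limma adjusted p = 0.874). Its sign changed with quantile normalization, to 0.033, and without knockout replicate 1, to 0.036. The ratio of CRTC3 to CRTC2 within a library was 1.40, 1.67 and 1.59 in the wild type and 1.34, 0.954 and 0.967 in the knockout, so all 3 knockout ratios were below the lowest wild-type ratio. This ratio was chosen after the values were seen and carries no test.

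CRTC1 (chromosome 19, 18683677 to 18782333, plus strand), the form best known from brain, was the scarcest of the 3. It had 75.5, 113 and 66.3 normalized counts in the wild type and 73.7, 24.5 and 33.8 in the knockout. Knockout replicate 1 lay inside the wild-type range and the other knockout libraries below it. CRTC1 had a log2 fold change of -1.05 (SE 0.51) and a 95% interval from -2.24 to 0.14 (limma adjusted p = 0.234), and without knockout replicate 1 it was -1.49 (limma adjusted p = 0.0700). These values rest on 50, 149 and 104 reads in the wild-type libraries and 58, 22 and 38 in the knockout libraries.

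CREBBP and EP300 encode paralogous acetyltransferases of histones and many transcription factors. CREBBP (chromosome 16, 3725054 to 3880726, minus strand) had 1004, 1301 and 947 normalized counts in the wild type and 1108, 631 and 386 in the knockout. Knockout replicate 1 fell inside the wild-type range, while the other knockout libraries lay below it. For CREBBP the log2 fold change was -0.73 (SE 0.38), with a 95% interval from -1.61 to 0.15 (limma adjusted p = 0.261). Without knockout replicate 1 it was -1.12 with a limma adjusted p of 0.0419, and without knockout replicate 3 it was -0.36 with a limma adjusted p of 0.584, so single libraries decided this value.

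EP300 (chromosome 22, 41091786 to 41180079, plus strand) had 1791, 1184 and 1364 normalized counts in the wild type and 1181, 1263 and 835 in the knockout. The genotypes overlapped, with wild-type replicate 1 the highest and knockout replicate 3 the lowest. EP300 had a log2 fold change of -0.41 with a 95% interval from -0.99 to 0.18 (limma adjusted p = 0.352). It was -0.22 when knockout replicate 3 was left out and -0.24 when wild-type replicate 1 was (limma adjusted p = 0.689 and 0.730). The ratio of CREBBP to EP300 within a library was 0.561, 1.10 and 0.694 in the wild type and 0.939, 0.500 and 0.462 in the knockout. The ratio was highest in wild-type replicate 2 and knockout replicate 1, and the ranges of the genotypes overlapped.

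**Figure D2:**
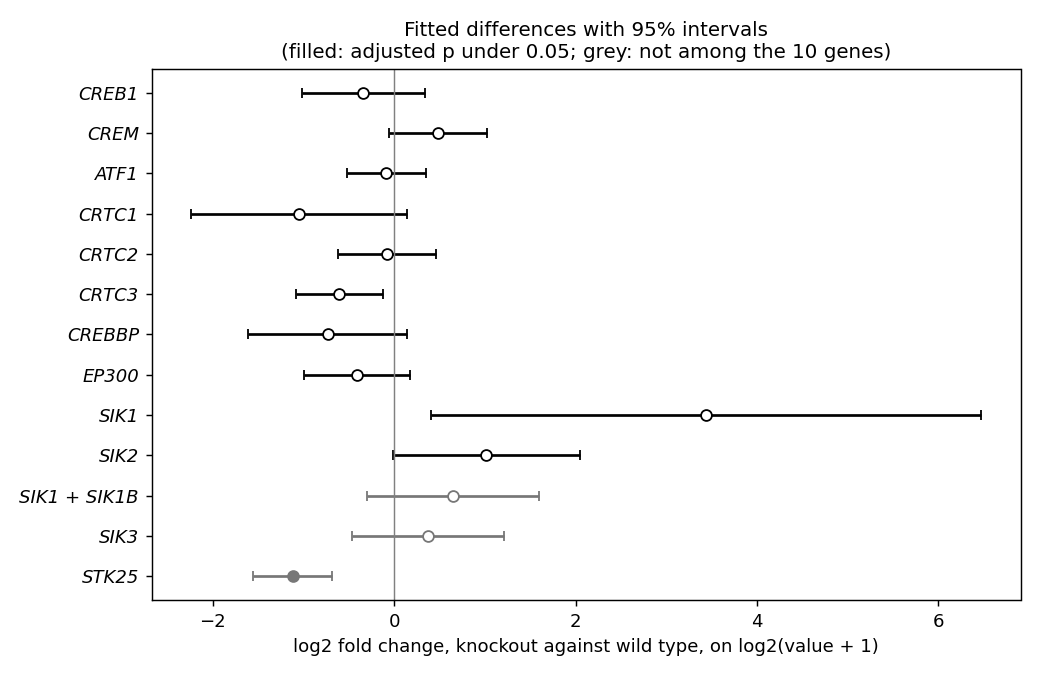
Log2 fold change of knockout against wild type for the 10 genes (black) and, in grey, the sum of SIK1 and SIK1B, SIK3 and STK25, with 95% intervals from limma on log2(value + 1). Only STK25 has an adjusted p under 0.05; the intervals of CRTC3 and SIK1 leave out 0 before adjustment over all genes, and that of SIK1 is the widest.

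SIK2 (chromosome 11, 111602391 to 111730853, plus strand) encodes a salt-inducible kinase that phosphorylates CRTC proteins and class IIa histone deacetylases. Its wild-type libraries stood at 118, 117 and 98.2 normalized counts and its knockout libraries 421, 204 and 132. Every knockout library was above every wild-type library, but the knockout values spread over a wide range and the lowest lay close to the wild type. Between the genotypes the log2 fold change was 1.02 (SE 0.44), with a 95% interval from -0.013 to 2.04 (limma adjusted p = 0.186), and without knockout replicate 1 it was 0.56 (limma adjusted p = 0.326). SIK2 shares 150 exonic bases with PPP2R1B on the other strand in GENCODE 29, and counting is not stated to use strand. PPP2R1B had 701, 352 and 569 normalized counts in the wild type and 193, 1244 and 951 in the knockout, so it was lowest where SIK2 was highest. Whether reads from the shared bases entered the SIK2 values was not tested. Exons of CREB1, CREM, CRTC3 and EP300 also overlap annotated antisense genes, which were not analysed here.

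The SIK2 window is shown because its short elements face each other. The 30 bases on the plus strand at chr11:111602384-111602413 hold TGACG from 59 and CGTCA from 46 bases before the RefSeq start, in capitals.
SIK2 promoter: gcccccTGACGtcggcgcaCGTCAgcggcg

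SIK1 encodes the salt-inducible kinase whose gene is itself induced by cAMP through CREB. Its RefSeq window holds the short element 3 times, from 217, 137 and 126 bases before the start, the most of any member's window. The stretch at chr21:43427241-43427356 is printed on the minus strand, the strand of the gene, with the short elements in capitals.
SIK1 promoter: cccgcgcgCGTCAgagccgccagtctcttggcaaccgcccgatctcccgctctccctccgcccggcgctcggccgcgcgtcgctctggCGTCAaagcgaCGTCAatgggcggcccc

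The SIK1 row of the table had 0, 0 and 24.9 normalized counts in the wild type and 25.4, 24.5 and 48.0 in the knockout. Wild-type replicates 1 and 2 had no read in this row, and wild-type replicate 3 lay within the range of the knockout. A floor of 3 reads allows up to 4.53 and 2.29 normalized counts in replicates 1 and 2, for counting error alone. That floor does not cover how reads were divided with the SIK1B row, so it does not bound the level of the gene. The fitted log2 fold change of 3.44 (SE 1.31, limma adjusted p = 0.134) followed the pseudocount, at 5.63 with 0.1 and 1.45 with 10, and was 1.87 in edgeR (adjusted p = 0.449). Without wild-type replicate 3 it was 5.0 with a limma adjusted p of 0.0256.

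A second row, SIK1B, bears on how SIK1 can be read. GENCODE 29 places SIK1 on chromosome 21 from 43414483 to 43427189 (minus strand) and SIK1B on the same chromosome from 6111134 to 6123739 (plus strand). The main coding transcripts, of 4805 and 4705 bases, aligned over 4705 bases with 7 differences, an identity of 99.9%. Of these, 2 lie in the coding sequence of 2349 bases, C2038T and C2042T, counted from 1 at the first base of the SIK1 transcript, with the base of SIK1 first. The other 5 lie in untranslated sequence. The 30 coding bases that hold both differences are shown with the differing bases in capitals, since reads that miss such positions cannot be assigned to one copy; the SIK1 stretch is from chr21:43417658-43417687 on the minus strand.
SIK1: aggtgtgccaggCcccCgccagccgggcca
SIK1B: aggtgtgccaggTcccTgccagccgggcca

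SIK1B had 169, 325 and 399 normalized counts in the wild type and 603, 427 and 268 in the knockout, so most reads of the pair were listed under SIK1B. In reads, the libraries held 0, 0 and 39 for SIK1 and 112, 427 and 625 for SIK1B in the wild type. The log2 fold change of SIK1B was 0.55 (SE 0.42, limma adjusted p = 0.457). With both rows summed, a choice made after the values were seen, the pair had 169, 325 and 424 normalized counts in the wild type and 628, 451 and 316 in the knockout. Knockout replicate 3, the highest library for SIK1 alone, was the lowest knockout library for the sum and lay inside the wild-type range. The log2 fold change of the sum was 0.65 (SE 0.41, limma adjusted p = 0.362). The SIK1 row alone is therefore an uncertain measure of the gene.

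SIK3, the remaining family member and no member of the 10, had 1530, 918 and 2275 normalized counts in the wild type and 1389, 2350 and 2121 in the knockout (log2 fold change 0.37, SE 0.36, limma adjusted p = 0.566). Its genotypes overlapped, and single libraries set the value, which was 0.031 with wild-type replicate 2 left out and 0.69 with wild-type replicate 3 left out (limma adjusted p = 0.960 and 0.315).

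Wild-type replicate 2 and knockout replicate 1, a pair picked after the values were seen, often lay at the same end of their genotypes. Over all tested genes their deviations from the genotype means had a correlation of 0.45, so this was not particular to the 10 genes. The share of all genes with both at the same end was not counted. Among the 10, both were the highest library of their genotype for 4 genes (CREM, ATF1, CRTC1 and CREBBP) and the lowest for 2 (CREB1 and CRTC2). For ATF1 wild-type replicate 2 was the highest by little, at 850 against 849 in replicate 3. The 2 libraries stood at opposite ends for 1, CRTC3. The ratio of CREM to CREB1 within a library, which follows from those places, was 5.04, 9.40 and 5.79 in the wild type and 21.9, 7.49 and 9.16 in the knockout. The same pair of libraries had the highest share of normalized counts from the 13 mitochondrial-genome transcripts, 3.90% and 3.33%, where the other libraries had from 1.25% to 2.18%. They also had the highest sum of cardiomyocyte markers and of the 7 neural markers and the lowest of the 8 fibroblast and stromal markers in their genotype. The neural sums were 5361, 7867 and 4560 in the wild type and 16921, 7312 and 7080 in the knockout, and 0 neural markers were at or under 3 reads in every library. The fibroblast and stromal sums were 21260, 12924 and 26543 in the wild type and 7871, 16398 and 13262 in the knockout, also with 0 markers at or under 3 reads throughout. These 8 markers moved both ways, with 3 past the limma threshold as higher in the knockout and 1 as lower. The part of these measures in the members' values was not tested. The labels name no batch.

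**Figure D3:**
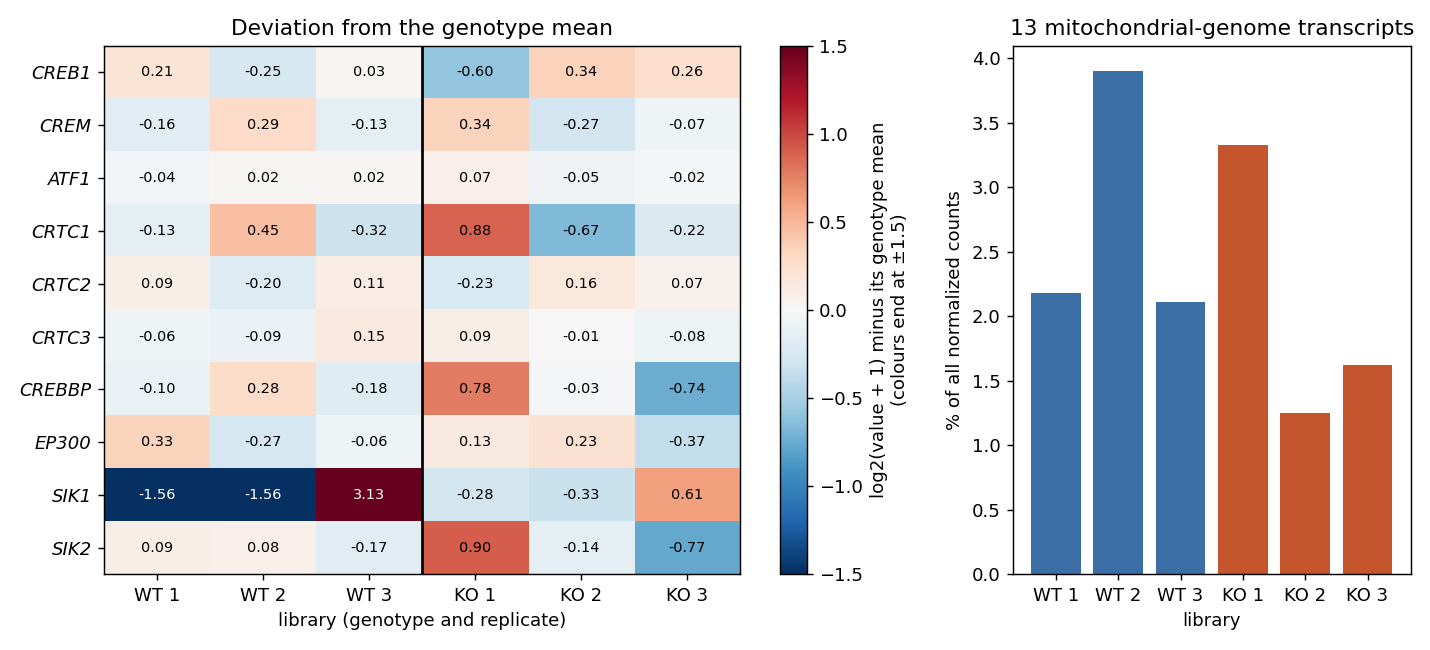
Left, each gene's log2(value + 1) in each library minus the mean of its genotype, with wild type (WT) and knockout (KO) replicates as columns; right, the percentage of all normalized counts from 13 mitochondrial-genome transcripts. WT 2 and KO 1 deviate the same way for every gene but CRTC3 and EP300, though by only 0.020 and 0.070 for ATF1. They have the highest mitochondrial percentages, 3.90% and 3.33%.

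The neighbouring parts of the pathway were taken from 7 lists of related genes, chosen with earlier results of these data known. Of 109 genes all had a row and 101 were tested; 22 (21.8%) passed with limma, 12 higher and 10 lower in the knockout, beside 12.8% of all tested genes. Over the 101 tested genes the median log2 fold change was 0.015. In the values below, ± gives the SD over the 3 libraries of a genotype. Leaving out 1 library at a time, 5 of the 22 passed in all 6 fits, and for the other 17 the highest adjusted p was 0.181. Leaving out wild-type replicates 1, 2 and 3 in turn gave 9, 14 and 6 list genes past the threshold, and leaving out knockout replicates 1, 2 and 3 gave 26, 10 and 6. With equal totals NUAK1, CAMK2D, PPP3CC, MEF2C and NCOA1 lost their calls (limma adjusted p up to 0.190). Quantile normalization took those of CREB3L2, CREB3L4, CREB5, CAMK1 and CAMK2D (up to 0.0819), and equal upper quartiles those of CREB3L2, CREB3L4 and CITED2 (up to 0.0567). Without a trend in eBayes, CREB3L2, CREB5, CAMK1, CAMK2D, PPP3CA, PPP3CC, NCOA1 and CITED2 missed the threshold (up to 0.0773), without a filter CREB3L4, CREB5 and PDE4B did (up to 0.0802), and with a pseudocount of 10 CREB5 did.

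**Figure D4:**
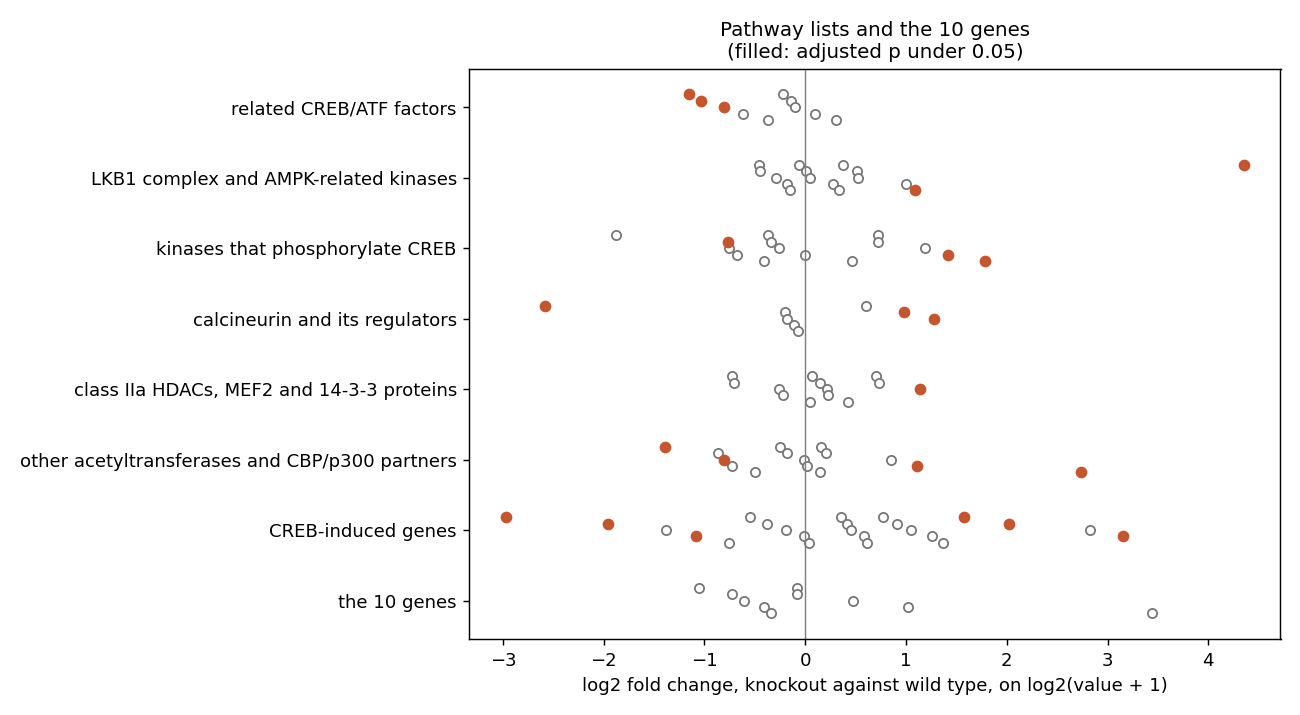
Log2 fold changes of the tested genes of 7 related lists and of the 10 genes, one point per gene, with genes at an adjusted p under 0.05 filled. Each list holds at least 1 filled point, 22 in all, and the row of the 10 genes holds 0.

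Among related CREB and ATF factors, 3 of 10 tested genes passed, all lower in the knockout, and the list's median log2 fold change was -0.30. CREB3L2, a membrane-anchored factor released by proteolysis in response to ER stress, fell from 914 ± 79.2 to 456 ± 126 normalized counts (log2 difference -1.04, limma adjusted p = 0.0376). CREB3L4, of the same family, fell from 404 ± 89.2 to 180 ± 27.9 (log2 difference -1.15, limma adjusted p = 0.0359). CREB5 fell from 813 ± 119 to 462 ± 22.6 (log2 difference -0.80, limma adjusted p = 0.0487). Of the 6 leave-one-out fits, CREB3L2 and CREB3L4 passed in 1, without knockout replicate 1 (otherwise up to 0.135 and 0.116), and CREB5 in 0 (up to 0.181).

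The LKB1 complex and the AMPK-related kinases, the family to which the salt-inducible kinases belong, had 2 of 16 tested genes past the threshold. NUAK1 rose from 870 ± 128 to 1845 ± 250 normalized counts (log2 difference 1.09, limma adjusted p = 0.0151), and was over the threshold without wild-type replicate 3 or knockout replicate 2 (up to 0.0642). BRSK2, a kinase best known from neurons, rose from 24.5 ± 19.2 to 361 ± 90.8 (log2 difference 4.35, limma adjusted p = 0.0149), with 0.0501 without knockout replicate 3. STK11, which encodes the upstream kinase LKB1, had a log2 fold change of -0.15 (limma adjusted p = 0.725).

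Of 15 tested kinases of CREB and of the calcium/calmodulin branch upstream of it, 2 passed as higher and 1 as lower. RPS6KA5, the mitogen- and stress-activated kinase MSK1, rose from 260 ± 32.3 to 893 ± 112 normalized counts (log2 difference 1.78, SE 0.23, limma adjusted p = 0.00290) and kept its call whichever library was left out. CAMK2D, the main cardiac calcium/calmodulin-dependent kinase, rose from 6164 ± 1744 to 16600 ± 5307 (log2 difference 1.42, limma adjusted p = 0.0273). CAMK1 fell from 1075 ± 68.1 to 631 ± 18.1 (log2 difference -0.77, limma adjusted p = 0.0364). CAMK2D and CAMK1 passed only when knockout replicate 1 was the library left out (otherwise up to 0.105 and 0.135).

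Calcineurin, the phosphatase that acts on CRTC proteins, and its regulators had 3 of 8 tested genes past the threshold. The catalytic subunits PPP3CA, from 413 ± 131 to 992 ± 249 normalized counts, and PPP3CC, from 1071 ± 225 to 2078 ± 99.7, rose to 240% and 194% of the wild-type mean (limma adjusted p = 0.0318 and 0.0252). The inhibitor RCAN2 fell from 5548 ± 1550 to 921 ± 226 normalized counts (log2 difference -2.58, SE 0.29, limma adjusted p = 0.00167) and kept its call whichever library was left out. PPP3CA passed only without wild-type replicate 2 (otherwise up to 0.130), and PPP3CC only without wild-type replicate 2 or knockout replicate 1 (otherwise up to 0.102). The third catalytic gene, PPP3CB, had a log2 fold change of -0.18 (limma adjusted p = 0.789), and RCAN1 had -0.076 (limma adjusted p = 0.919).

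Of 13 tested genes for class IIa histone deacetylases, which salt-inducible kinases also phosphorylate, their MEF2 partners and the 14-3-3 proteins that retain phosphorylated CRTC, 1 passed. MEF2C rose from 3299 ± 598 to 7239 ± 1082 normalized counts (log2 difference 1.14, limma adjusted p = 0.0138), and was over the threshold without wild-type replicate 3, knockout replicate 2 or knockout replicate 3 (up to 0.0601). None of the 4 class IIa deacetylase genes HDAC4, HDAC5, HDAC7 and HDAC9 passed, with log2 fold changes from -0.73 (HDAC7) to 0.73 (HDAC9) and limma adjusted p-values of at least 0.267.

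Other acetyltransferases and partners of CBP had 4 of 15 tested genes past the threshold, 2 in each direction. KAT2B, the acetyltransferase PCAF, fell from 703 ± 205 to 268 ± 75.1 normalized counts (log2 difference -1.39, limma adjusted p = 0.0292). NCOA1, a nuclear receptor coactivator, rose from 908 ± 256 to 1930 ± 391 (log2 difference 1.11, limma adjusted p = 0.0423). Of the CITED proteins, which bind CBP, CITED1 rose from 8.43 ± 4.50 to 58.1 ± 9.09 (limma adjusted p = 0.0179) and CITED2 fell from 2278 ± 338 to 1291 ± 83.3 (limma adjusted p = 0.0323). KAT2B was over the threshold without either of wild-type replicates 1 and 3 or knockout replicate 3 (up to 0.112). CITED1 was over it without wild-type replicate 3, knockout replicate 2 or knockout replicate 3 (up to 0.0829), and NCOA1 and CITED2 in every leave-one-out fit but the one without knockout replicate 1 (up to 0.152 and 0.112).

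Among 29 genes known to be induced through CREB, 24 were tested, 3 passed as higher and 3 as lower, and the median log2 fold change was 0.44. GADD45B, a stress-response gene, rose from 894 ± 170 to 2661 ± 375 normalized counts (log2 difference 1.58, SE 0.22, limma adjusted p = 0.00395). Its call held whichever library was left out, as did BDNF (3.15) and GEM (2.02), the other genes that rose. EGR1, PDE4B and ATF3 fell by 2.97, 1.96 and 1.08 on the log2 scale, and each was over the threshold in at least 3 of the 6 leave-one-out fits, with adjusted p-values up to 0.0770, 0.156 and 0.0693. EGR1 and ATF3 lost the call without either of wild-type replicates 1 and 3 or knockout replicate 3, and PDE4B kept it only without knockout replicate 1. Other immediate early genes of the list included NR4A1 at -0.19, FOS at -0.38, FOSB at -1.38 and JUNB at 0.61 on that scale (limma adjusted p = 0.676, 0.441, 0.119 and 0.0871). The genotypes overlapped for NR4A1 and FOS, and did not for FOSB, which was lower in every knockout library, and JUNB, which was higher. NR4A2 and NR4A3, with means from 8.37 to 18.5 normalized counts, were at 1.26 and 1.36 (limma adjusted p = 0.559 and 0.582) and overlapped. Members of this list thus moved both ways.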

How the data were processed

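The authors deposited 1 table of normalized counts, a signal of reads per gene symbol divided by 1 factor per library. The submitters' processing notes name bcl2fastq 2.19, kallisto 0.44.0, DESeq2 1.28.1 and GRCh38, without roles; annotation and strand are not given in the sources used here. Per the labels' protocols, cDNA synthesis used Clontech Ultra Low v4 and library preparation NexteraXT. In every library 100% of values were whole multiples (within 0.001) of its smallest non-zero value, which gave back whole numbers, called reads here. The notes do not say whether these were counted reads or rounded estimates. Floors of 3 reads cover counting error only, since PCR copies cannot be told apart.

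All 6 libraries were fitted with limma 3.58.1 (R 4.3.3; lmFit, eBayes with a trend) on log2(value + 1). Only genes averaging 10 or more normalized counts entered, 15536 in all, and Benjamini-Hochberg adjustment covered all of them, with a threshold of 0.05. Fold changes are on this scale, and those of low genes depend on the pseudocount. The recovered reads also went through edgeR 4.0.16 and DESeq2 1.42.0, and the other alternatives were pseudocounts, filters, scalings, eBayes settings, a replicate block and leaving out libraries. The fits were tested on simulated data in which each library was drawn independently, so patterns shared between libraries were not covered. Its planted changes were larger than the fitted change of every member but SIK1. The labels do not say that replicate numbers pair the libraries, so the main fit did not pair them. No pathway list was given a set test. 0 columns were left unused.

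Gene positions and lengths came from GENCODE 29 on GRCh38, and promoters from RefSeq on GRCh38.p14, matched by symbol for 9 of the 10 genes. Transcripts were aligned with Biopython 1.88, and figures drawn with matplotlib 3.10.9 in Python 3.11.15. The genes named are the 10 members, STK25, SIK3 and list genes with an adjusted p under 0.05. Other genes were named after their values were seen. Members and lists were chosen with earlier results of these data known. SIK1 summed with SIK1B, and leaving out wild-type replicate 2 and knockout replicate 1 together, were added after the data were seen.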

Additional observations from a re-analysis of the deposited data

How the results depend on the processing

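The number of the 10 genes past the threshold was 0 in the fit reported and with both other pseudocounts, without a filter, with a mean of at least 50 (where SIK1 was not tested), with upper-quartile and quantile scaling, with both other eBayes settings and with edgeR. It was 1 with equal totals (CRTC3) and with DESeq2 (also CRTC3), from 0 to 1 when 1 library was left out, and 3 (CREBBP, CREM and CRTC3) when wild-type replicate 2 and knockout replicate 1 were left out together, an alternative added after the data were seen; the cause was not tested. The sign of CRTC2 reversed, to 0.033 with quantile normalization and 0.036 without knockout replicate 1, in a leave-one-out range from -0.18 to 0.036. Genes called over the whole table numbered 1982, and 3210 with DESeq2, 4706 without those 2 libraries and from 792 to 2192 leaving out 1 library. With equal totals 27.1% of the calls were higher in place of 46.8%. Pathway list genes called numbered 22, and 14 without a trend in eBayes, 39 without those 2 libraries and from 6 to 26 leaving out 1 library. STK25 ran from -1.24 to -1.05 there. Same-numbered replicates deviated from their genotype means with correlations of -0.23, -0.40 and 0.17. With 3 libraries per genotype these values cannot show whether same-numbered replicates shared a preparation. A replicate block gave 798 calls over all genes, 0 among the 10 genes and 7 in the lists, and STK25 at -1.12 with a limma adjusted p of 0.0684. CRTC1 and the SIK1 row rest on few reads. The SIK1 row also depends on how reads were divided with SIK1B. Wild-type replicate 2 held 0 reads for SIK1 and 427 for SIK1B.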
